A study of Homo sapiens with 16 samples.

Results

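The genes described here encode the replacement histones and the linker histones whose genes lie outside the histone gene clusters. They were taken from the table by symbol: H2AFZ and H2AFV (H2A.Z), H2AFX (H2A.X), H2AFJ (H2A.J), H2AFY and H2AFY2 (macroH2A), H3F3A and H3F3B (histone H3.3), and H1F0 and H1FX (linker histones). All 10 were listed and all 10 were tested, of 12676 genes in the table. H1299 cells, which derive from a non-small cell carcinoma of the lung, had been infected with a lentivirus carrying the non-targeting control pLKO-shNT (2 libraries) or an shRNA against YEATS2 (2 libraries, YEATS2 KD cells). Both groups received polybrene at 8 µg/ml with the virus and, after 48 h, puromycin at 2 µg/ml, with a selection of 4 to 7 days per the labels. The study's methods give a shorter selection. RNA was prepared from the selected pools and sequenced by RNA-seq, with no untransduced cells among the RNA samples and with the shRNA construct unnamed in the labels. The study describes duplicate RNA-seq with an efficient YEATS2 shRNA, and RNA-seq with an independent shRNA that depleted YEATS2 only partly. The labels set no independent YEATS2 shRNA apart among these libraries. Effects of a construct and of YEATS2 loss therefore cannot be told apart. The labels do not say whether replicates were separate cultures (the study calls them independent), so p-values here measure the spread between these libraries. ChIP-seq of the same cell line was not analysed here.

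In a nucleosome, DNA wraps around H2A, H2B, H3 and H4, and most of that supply comes from clustered genes that are transcribed as DNA is replicated and whose mRNAs end in a short stem-loop in place of a poly(A) tail. Replacement variants are encoded by separate genes with polyadenylated mRNAs and can be put into chromatin outside S phase by dedicated chaperones and remodellers. H2A.Z marks promoters and enhancers, H2A.X is phosphorylated beside DNA breaks, macroH2A carries a large extra domain and is known from silent chromatin, H3.3 is deposited at active genes and at telomeres, and H1 binds the linker DNA at the entry of the nucleosome. H1F0 is known for high levels in differentiated and slowly dividing cells.

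H2AFX is the member whose gene keeps the clustered type of mRNA end, and the sequences are shown because they divide the histone genes by the way their mRNAs can end. A 16-base histone stem-loop with pairing arms was searched for in the annotated 3′ UTRs (GENCODE on GRCh37), and the capitals mark the loop. It was present in 1 of 10 members, H2AFX, in 14 of the 14 clustered histone genes that could be matched to the annotation, and in 1 of the 11402 other genes with an annotated coding transcript. Over all 11426 such genes, 16 (0.14%) held it. In H2AFX the stem-loop began 50 bases after the stop codon and was followed by 1024 bases of the annotated 3′ UTR. Long annotated ends after the stem-loop were also found in the clustered genes HIST2H2BE (1729 bases), HIST1H3H (769) and HIST3H2A (390). In HIST1H4H and HIST1H2BD it began 42 and 37 bases after the stop codon, with 5 bases after it in each.
H2AFX, 3′ UTR of a single-exon gene, chr11:118965608-118965623, minus strand: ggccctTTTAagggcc
HIST1H4H, 3′ UTR, chr6:26285359-26285374, minus strand: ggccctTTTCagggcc
HIST1H2BD, 3′ UTR, chr6:26158815-26158830, plus strand: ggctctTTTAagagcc

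Promoters were read from RefSeq (GRCh38.p14, 300 bases around each annotated start), where 9 of the 10 members had an entry and H1F0 had none. Both strands were searched for CCAAT and for TATAAA, and for 3 words of the type that E2F factors bind. CCAAT occurred in 6 of 9 members and in 35.7% of all 27305 promoters, and the members without it were H1FX, H2AFY and H2AFY2. TATAAA occurred in 4 of 9 members and in 12.0% of all promoters, and H2AFV was among the members without it. Of the 13 clustered histone genes with an entry, 8 held TATAAA and 12 held CCAAT. Of the E2F-type words, TTGGCGC was found in H1FX and in no other member (3.12% of all promoters). Its first letters can overlap CCAAT read on the reverse strand, but did not in H1FX, which held no CCAAT. The word TTCGCGC was in none of the members (2.3% of all promoters). The same was true of TTCCCGC (6.56% of all promoters). The 4 windows with TATAAA in capitals are shown because they include the largest falls of the group, H2AFZ and H2AFX, beside H1FX and H3F3B, which did not pass the test. The word began 31 bases before the annotated start in H2AFZ, H2AFX and H1FX and 29 bases before it in H3F3B.
H2AFZ, GRCh38.p14 chr4:99950289-99950318, minus strand: aacattctgcagTATAAAgggagcagggaa
H2AFX, GRCh38.p14 chr11:119095479-119095508, minus strand: gtcctgggggctTATAAAggcggcctcgcg
H1FX, GRCh38.p14 chr3:129316300-129316329, minus strand: ccgccatgaagcTATAAAaagccgagagaa
H3F3B, GRCh38.p14 chr17:75779791-75779820, minus strand: gtgaagcgtgccTATAAAaacggaggcgac

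The libraries held between 34718921 and 39417787 reads over the listed genes, and the biological coefficient of variation was 0.107. Counts are given scaled by the TMM method to the mean size of the 4 libraries ("scaled reads"), and a gene was called at a false discovery rate (FDR) under 0.01 in edgeR's quasi-likelihood (QL) test, adjusted by Benjamini-Hochberg over all 12676 genes. YEATS2, the targeted gene, had 4482 and 4104 scaled reads in shNT cells, against 665 and 673 in YEATS2 KD cells (log2 fold change -2.68 ± 0.10 SE, FDR 0.000583). Of the markers of the cell line, KRT8, KRT18 and VIM had at least 7983 scaled reads in every library and none passed the test, and PTPRC, PECAM1 and ALB, markers of blood, endothelial and liver cells, are not among the listed genes, each of which had at least 101 reads in some library. In bulk RNA, a change in the make-up or cell cycle stage of the culture and a change of RNA per cell cannot be told apart.

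Among the 10 genes, 3 fell in YEATS2 KD cells, 0 rose and 7 were not called, against 12.5% of all genes called lower and 12.9% called higher. The 3 were H2AFZ, H2AFX and H2AFV, all of the H2A family. In 8 of the 10 both YEATS2 KD libraries lay below both shNT libraries, which held for 39.8% of all genes, and in H2AFY2 and H1F0 the groups overlapped. Before adjustment, 8 of the 10 had p under 0.05 and a lower value in KD cells and none a higher one, against 27.8% of all genes lower. With FDR under 0.05 in place of 0.01, 8 were called lower (23.8% of all genes), DESeq2 called 5 (17.3%), exactTest 5 (19.7%) and a fit with the replicate number as a block 8 (21.4%). The median log2 fold change of the 10 genes was -0.42 and that of all genes was -0.0019. The members' summed scaled reads were 71946 and 76868 in shNT cells, against 49888 and 46947 in YEATS2 KD cells, a ratio of 0.651.

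**Figure D1:**
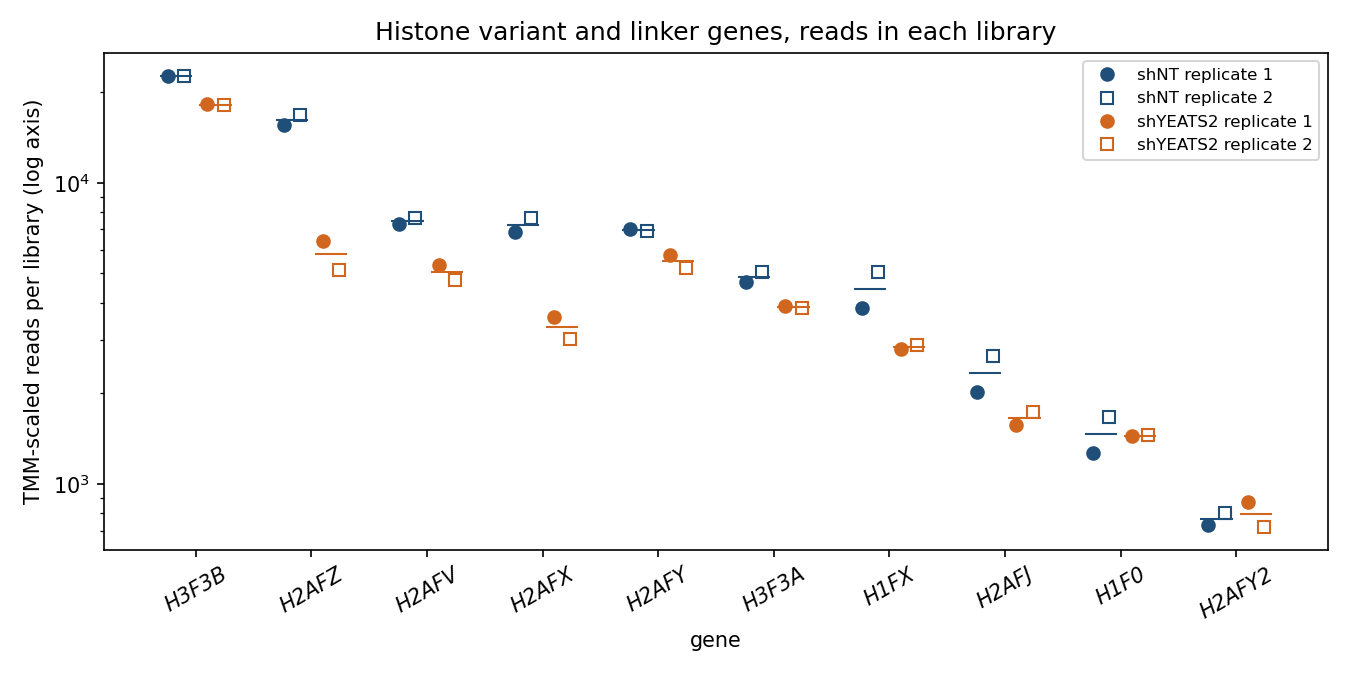
Scaled reads of the 10 genes in each of the 4 libraries (log axis), with shNT in blue, YEATS2 KD in orange and short lines at the group means. H2AFZ drops from at least 15510 to at most 6417 scaled reads, whereas the points of H1F0 and H2AFY2 overlap between groups.

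H2AFZ, the main gene of H2A.Z, showed the largest change of the group. H2AFZ (ENSG00000164032, now H2AZ1, chr4:100869243-100871512 of GRCh37, minus strand) had 15510 and 16833 scaled reads in shNT cells, against 6417 and 5151 in YEATS2 KD cells. The mean of the control libraries was 16172 ± 936 (SD, n = 2) and that of the YEATS2 KD libraries was 5784 ± 895 (SD, n = 2), so the control level was 2.80-fold that of the KD cells. Both KD libraries lay far below both controls. H2AFZ shares 223 exon bases with H2AZ1-DT on the other strand, which is not among the listed genes. The log2 fold change was -1.48 ± 0.13 (SE), with a 95% interval of -1.79 to -1.17 and an FDR of 0.000975 in edgeR's QL test. Leaving out 1 library at a time gave -1.65 to -1.33, always under the threshold.

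H2AFV encodes the second H2A.Z protein, which differs from the H2AFZ product in few residues. H2AFV (ENSG00000105968, now H2AZ2, chr7:44866390-44887686, minus strand) had 7303 and 7620 scaled reads in shNT cells and 5343 and 4748 in YEATS2 KD cells. The groups did not overlap, and the fall was smaller than that of H2AFZ. The log2 fold change was -0.56 ± 0.10 (SE), with a 95% interval of -0.80 to -0.32 and an FDR of 0.00529 in edgeR's QL test. The 95% intervals of H2AFZ and H2AFV do not overlap. The H2AFV call was lost without shNT replicate 1 (-0.60, FDR 0.0200), without shNT replicate 2 (-0.53, FDR 0.0304), without shYEATS2 replicate 2 (-0.48, FDR 0.0133) and with scaling by total counts (-0.45, FDR 0.0108), each in edgeR's QL test.

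Within a library, the ratio of H2AFZ to H2AFV reads needs no scaling between libraries. In shNT cells it came to 2.12 and 2.21, against 1.20 and 1.08 in YEATS2 KD cells. The controls thus held more than 2 reads of H2AFZ per read of H2AFV and the KD cells held close to 1. The mean log2 ratio was lower by 0.92 in KD cells (p = 0.333, exact permutation test, two-sided), where 0.333 is the smallest p that 2 against 2 libraries allow and Benjamini-Hochberg adjustment over the 5 pairs gave 0.417. As RPKM on the length of the canonical transcript, the level of H2AFZ and H2AFV together was 580 ± 31.7 (SD, n = 2) in shNT, against 229 ± 32.2 (SD, n = 2) in YEATS2 KD cells, of which H2AFZ made up 513 and 183.

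H2AFX, whose product is the substrate of the damage-dependent H2A phosphorylation called γH2AX, was the other strong fall. H2AFX (ENSG00000188486, now H2AX, chr11:118964584-118966175, minus strand, single exon) had 6863 and 7613 scaled reads in shNT cells and 3592 and 3027 in YEATS2 KD cells. Even the lower control library had slightly more scaled reads than both KD libraries together. The mRNA kit named in the labels selects poly(A) RNA, so H2AFX mRNAs that end at the stem-loop may be missed. In these counts a shift between mRNA ends and a change of all H2AFX mRNA cannot be told apart. The log2 fold change was -1.13 ± 0.12 (SE), with a 95% interval of -1.41 to -0.85 and an FDR of 0.00127 in edgeR's QL test. Leaving out 1 library at a time gave -1.26 to -1.01, always under the threshold.

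H2AFJ encodes H2A.J, a variant close in sequence to canonical H2A and known from senescent cells. H2AFJ (ENSG00000246705, chr12:14927339-14930936, plus strand) had 2019 and 2652 scaled reads in shNT and 1570 and 1734 in YEATS2 KD cells. The controls differed from each other by more than the KD libraries did. The log2 fold change was -0.50 ± 0.14 (SE) with an FDR of 0.0280 in edgeR's QL test, so it was not called. Without shNT replicate 2 the log2 fold change was -0.29 (FDR 0.184), and without shNT replicate 1 it was -0.69 and called (FDR 0.00960). The ratio of H2AFX to H2AFJ reads was 3.40 and 2.87 in the controls and 2.29 and 1.75 in KD cells, a difference of -0.64 on the log2 scale (p = 0.333, exact permutation test, adjusted 0.417).

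The macroH2A genes did not pass the test. H2AFY (ENSG00000113648, macroH2A1, chr5:134670071-134735604, minus strand), the more abundant of them, had 7006 and 6926 scaled reads in shNT and 5739 and 5223 in YEATS2 KD cells. Both KD libraries lay below both controls, with a log2 fold change of -0.35 ± 0.10 (SE) and an FDR of 0.0236 in edgeR's QL test. H2AFY2 (ENSG00000099284, macroH2A2, chr10:71812300-71872038, plus strand) had 732 and 803 in shNT and 869 and 719 in KD cells. Its groups overlapped, and the log2 fold change was 0.048 with a 95% interval of -0.27 to 0.37 (FDR 0.781, edgeR's QL test). The exons of H2AFY2 overlap those of AIFM2 on the other strand over 986 bases. Those of H2AFY overlap the exons of PITX1-AS1 on the other strand over 4706 bases, and PITX1-AS1 is not among the listed genes. The kit named in the labels does not mark strand, so reads in such overlaps cannot be told apart. The study's methods give HTSeq's default parameters, which count by strand. If that setting was used, reads of the opposite orientation were left out of the counts of every gene and could enter those of an overlapping gene on the other strand. The ratio of H2AFY to H2AFY2 reads was 9.58 and 8.63 in the controls and 6.61 and 7.27 in KD cells, a difference of -0.39 on the log2 scale (p = 0.333, exact permutation test, adjusted 0.417).

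H3F3A and H3F3B encode the same H3.3 protein from 2 genes. H3F3B (ENSG00000132475, chr17:73772515-73781974, minus strand) had 22707 and 22650 scaled reads in shNT cells and 18203 and 18178 in YEATS2 KD cells. H3F3A (ENSG00000163041, chr1:226249552-226259720, plus strand) had 4692 and 5056 in shNT and 3895 and 3828 in KD cells. In both genes the KD libraries lay below the controls, and the replicates of H3F3B were nearly equal. The log2 fold changes were -0.32 ± 0.09 (SE, FDR 0.0244) for H3F3B and -0.34 ± 0.09 (SE, FDR 0.0241) for H3F3A in edgeR's QL test, neither of them called. H3F3B shares 179 exon bases with UNK on the other strand. H3F3A has a processed copy in the table, H3F3AP4, with 455 and 494 scaled reads in shNT and 368 and 398 in KD cells, and reads of near-identical copies can be split or lost in counting.

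The ratio of H3F3A to H3F3B reads was 0.207 and 0.223 in the controls and 0.214 and 0.211 in KD cells. The KD values lay between those of the controls, with a difference of -0.017 on the log2 scale (p = 1, exact permutation test). Of the 5 pairs, this was the one whose groups overlapped. Among all 12676 single genes, only 2590 overlapped between the groups, so separation was common in these libraries. The share over other pairs of genes was not computed.

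**Figure D2:**
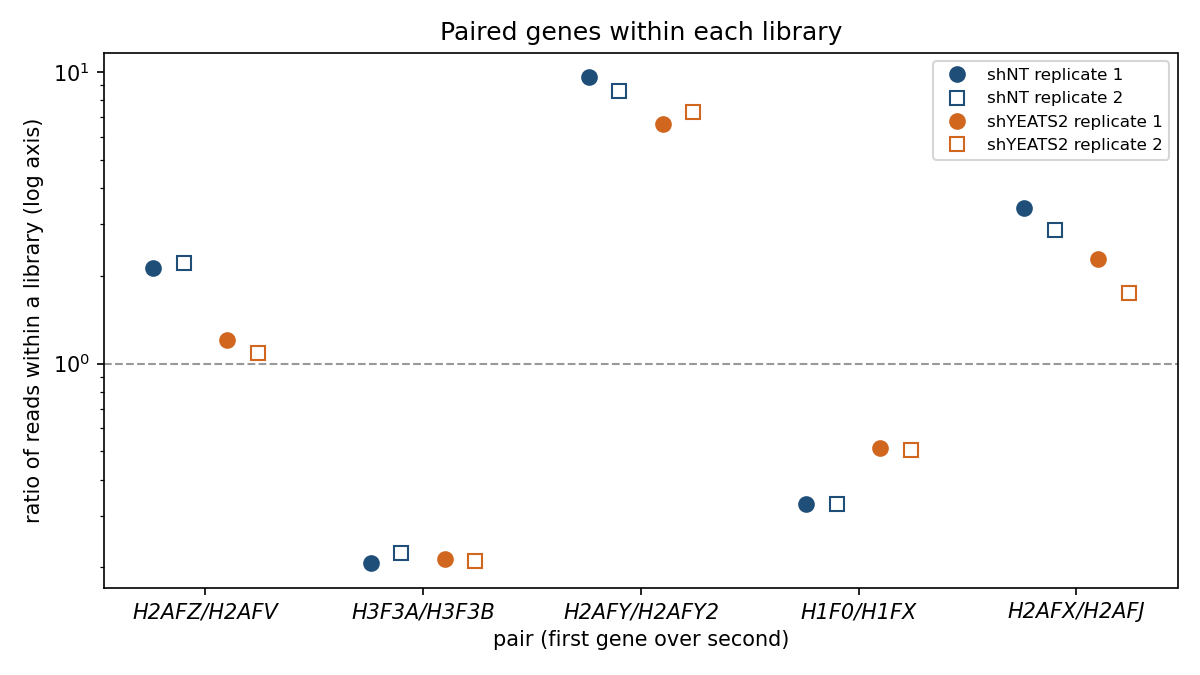
Ratio of the reads of paired genes within each library (log axis, dashed line at 1), with shNT in blue and YEATS2 KD in orange. The H2AFZ to H2AFV ratio drops from above 2 to near 1, the H1F0 to H1FX ratio is higher in YEATS2 KD cells, and the H3F3A to H3F3B ratio lies at 0.207 to 0.223 in every library.

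Of the linker histones, H1FX had lower values in KD cells and H1F0 did not separate the groups. H1FX (ENSG00000184897, histone H1.10, chr3:129033614-129035129, minus strand, single exon) had 3846 and 5048 scaled reads in shNT and 2817 and 2884 in YEATS2 KD cells. Its log2 fold change was -0.64 ± 0.14 (SE), with a 95% interval of -0.97 to -0.31 and an FDR of 0.0104, just outside the threshold of edgeR's QL test. Without shNT replicate 1 it was -0.83 and called (FDR 0.00382), and without shNT replicate 2 it was -0.43 (FDR 0.0561). Its exons overlap those of the antisense gene H1FX-AS1 over 345 bases, and H1FX-AS1 itself had 95 and 129 scaled reads in shNT and 108 and 118 in KD cells.

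H1F0 (ENSG00000189060, histone H1.0, chr22:38201236-38203439, plus strand, single exon) had 1270 and 1667 scaled reads in shNT and 1441 and 1454 in YEATS2 KD cells. Both KD values lay between the controls. The log2 fold change was -0.020 with a 95% interval of -0.36 to 0.31 (FDR 0.917, edgeR's QL test). Its sign turned with scaling by total counts (0.10) and without shNT replicate 2 (0.19). Against H1FX, however, the ratio of H1F0 reads was 0.330 in both controls and 0.512 and 0.504 in KD cells, higher by 0.62 on the log2 scale (p = 0.333, exact permutation test, adjusted 0.417).

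**Figure D3:**
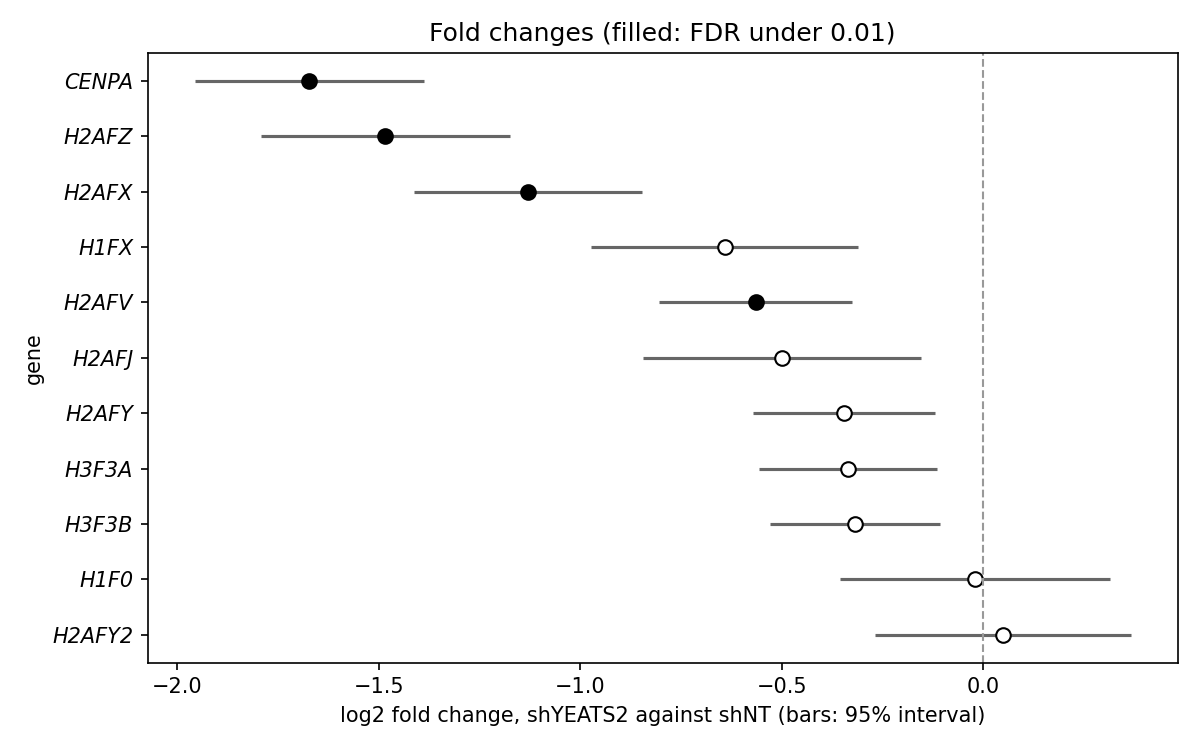
Log2 fold changes of the 10 genes and CENPA, YEATS2 KD against shNT, with 95% intervals from edgeR's QL fit and filled points for FDR under 0.01. The intervals of H2AFZ and H2AFX lie below -0.8, and those of H1F0 and H2AFY2 span 0.

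Levels between genes were compared per length, as RPKM (scaled reads over the length of the canonical transcript and the mean library size). In shNT cells H2AFZ had the highest level (513 ± 29.7, SD, n = 2), followed by H3F3B (230 ± 0.41), H3F3A (125 ± 6.60), H2AFX (125 ± 9.15), H2AFJ (103 ± 19.8) and H2AFY (99.8 ± 0.81). Below them came H1FX (80.5 ± 15.4), H2AFV (67.7 ± 2.03), H1F0 (18.3 ± 3.50) and H2AFY2 (10.9 ± 0.71). H3F3A and H2AFX, H2AFJ and H2AFY, and H1FX and H2AFV did not differ beyond their spread. In YEATS2 KD cells the level of H2AFZ (183 ± 28.4) equalled that of H3F3B (185 ± 0.18) within its spread, and H2AFX (57.1 ± 6.89) stood below H2AFY (78.5 ± 5.22) and H2AFJ (73.1 ± 5.12). The level of the H3.3 genes together was 355 ± 6.19 in shNT and 284 ± 1.39 in KD cells, that of the macroH2A genes was 111 ± 0.10 and 89.8 ± 6.73, and that of H1F0 and H1FX was 98.8 ± 18.9 and 69.7 ± 0.97. With the length of all annotated exons in place of the canonical transcript, the control level of H2AFZ was still the highest (196). H2AFX came next (125) and H3F3B was 101. H3F3A (35.0) then lay below H2AFX, and H2AFV (29.2) below H1FX (80.5). In YEATS2 KD cells H2AFX (57.1) then stood above H2AFJ (13.6) and H2AFY (8.84). The order of single genes, and which of them tie, thus depends on the transcript form assumed.

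The other variant histone genes outside the clusters were represented by CENPA alone, since 9 of the 10 on that list are not among the listed genes. CENPA encodes the H3 variant that marks centromeres. It had 1690 and 1911 scaled reads in shNT and 534 and 596 in YEATS2 KD cells, a control level 3.19-fold that of the KD cells. The log2 fold change was -1.67 ± 0.12 (SE, FDR 0.000793, edgeR's QL test). Its 95% interval (-1.96 to -1.39) overlapped that of H2AFZ.

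The genes that place and remove H2A.Z were mixed. Of 15 tested, 5 fell (against 12.5% of all genes), 2 rose (against 12.9% of all genes, a share close to that of the list) and 8 were not called, with a median log2 fold change of -0.05. The falls were YEATS4 (-0.82), a YEATS domain reader in the SRCAP and TIP60 complexes, the paired ATPases RUVBL2 (-0.80) and RUVBL1 (-0.52) and the actin-related ACTL6A (-0.73), which serve several remodelling complexes, and ANP32E (-0.66), a chaperone that removes H2A.Z. YEATS4 had 1871 and 1997 scaled reads in shNT and 1222 and 967 in KD cells, and ANP32E had 7546 and 7828 in shNT and 4868 and 4843 in KD cells. The rises were in the ATPases INO80 (1.05), with 2643 and 2412 scaled reads in shNT and 4431 and 6014 in KD cells, and SRCAP (0.48), which exchanges H2A for H2A.Z. Without shNT replicate 2 only RUVBL2 remained called among the falls, and only INO80 among the rises. Without shNT replicate 1 the list had 3 falls and 1 rise, and without shYEATS2 replicate 2 it had 1 rise.

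Of the 7 genes that deposit H3.3, DAXX (-0.49) fell, UBN2 (0.79) rose and 5 were not called, with a median of -0.01, so that the shares called were near those of all genes (12.5% lower and 12.9% higher). DAXX, the H3.3 chaperone that works with ATRX, had 6192 and 5691 scaled reads in shNT and 4477 and 4013 in KD cells. UBN2, a subunit of the HIRA complex, had 866 and 961 in shNT and 1430 and 1733 in KD cells. The DAXX call was lost without shNT replicate 1, shNT replicate 2 or shYEATS2 replicate 2 and with total counts, and that of UBN2 without shNT replicate 1.

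Of the 10 kinases, phosphatases and readers of H2A.X phosphorylation, MDC1 fell and 9 were not called, with a median of -0.32 and a share called lower near that of all genes (12.5%). MDC1, which binds γH2AX at breaks, had 14281 and 15056 scaled reads in shNT and 8705 and 7396 in KD cells (-0.87 ± 0.11 SE, FDR 0.00195, edgeR's QL test). The other members were between -0.44 and 0.42. DESeq2 and exactTest called 4 of the list lower and 1 higher, where they called 17.3% and 19.7% of all genes lower. The replicate block called 4 lower (21.4% of all genes) and FDR under 0.05 called 5 lower (23.8%), each with 1 higher. Limma-trend and the other scalings and filters called 1 lower.

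The clustered histone genes moved the other way from H2AFZ and H2AFX. Of 15 listed, 12 rose (against 12.9% of all genes), 1 fell (against 12.5%) and 2 were not called, with a median log2 fold change of 1.81. The list holds only genes with at least 101 reads in some library. HIST1H2BG, HIST1H4H, HIST1H2BN, HIST1H2AE, HIST1H3H and HIST3H2A stayed under 101 reads in both shNT libraries and are listed only through KD libraries. All of these but HIST3H2A are among the rises, so the count of rises and the median lean on that filter. Clustered genes below it in every library are not seen. HIST1H2AC (an H2A gene) had 596 and 665 scaled reads in shNT and 4569 and 6147 in YEATS2 KD cells (3.09 ± 0.17 SE, FDR 0.000793, edgeR's QL test). The H2B genes HIST1H2BC (2.84), HIST1H2BD (2.81) and HIST2H2BE (2.56) followed. The linker gene HIST1H1C, named after its value was seen, had 429 and 440 scaled reads in shNT and 1789 and 1756 in KD cells (2.03 ± 0.10 SE), against the values of H1F0 and H1FX above. HIST1H2BH was the fall, with 254 and 241 in shNT and 94 and 100 in KD cells (-1.35 ± 0.18 SE, FDR 0.00204), and HIST1H2AG (0.25) and HIST3H2A (0.39) were not called. The summed scaled reads of the 15 genes were 5424 and 5727 in shNT and 20602 and 24382 in KD cells, below the read sums of the 10 variant genes. Those sums are not corrected for length. Canonical transcripts run from 409 (HIST1H4H) to 2224 bases (HIST2H2BE) among the matched clustered genes, and from 620 (H2AFJ) to 3026 (H2AFV) among the members. Levels per length were not compared between these lists. The mRNA kit named in the labels selects poly(A) RNA, so these counts cover what such a library captures of mRNAs that mostly lack a poly(A) tail, and genes of these families share near-identical sequence.

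**Figure D4:**
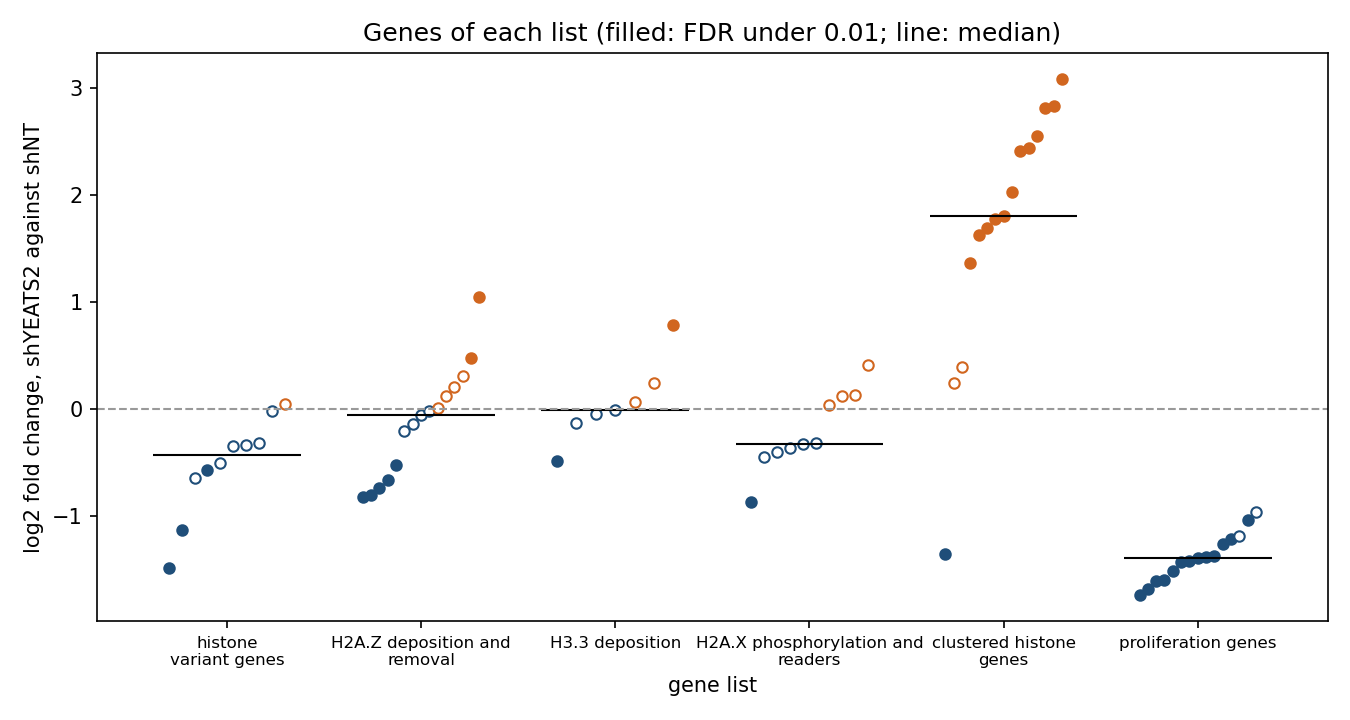
Log2 fold changes of the genes in 6 lists, YEATS2 KD against shNT, each point a gene, filled for FDR under 0.01, with a line at the median of each list. The 10 variant genes have a median of -0.42, the clustered histone genes 1.81 and the proliferation genes -1.39. Some clustered genes are listed only through their reads in YEATS2 KD cells.

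Genes of proliferating cells moved in the same libraries. Of 15, 13 fell (against 12.5% of all genes), 0 rose (against 12.9%) and 2 were not called, with a median log2 fold change of -1.39, and in all 15 both KD libraries lay below both controls (against 39.8% of all genes). RRM2 (-1.74) and TYMS (-1.67), enzymes of deoxynucleotide synthesis, MCM2 (-1.60), a subunit of the replicative helicase, and PCNA (-1.59), the polymerase clamp, fell most. The summed scaled reads of the list were 223919 and 221286 in shNT and 100132 and 70012 in KD cells. H2AFZ, H2AFX and CENPA had values in the range of this list (-1.74 to -0.96), and H2AFV, H1FX, H2AFJ, H2AFY, H3F3A, H3F3B, H1F0 and H2AFY2 lay above it. The study reports slower growth of H1299 cells with YEATS2 knocked down and, by flow cytometry of knockdown cells, arrest in G1. The part of proliferation in the members' values was not tested.

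**Figure D5:**
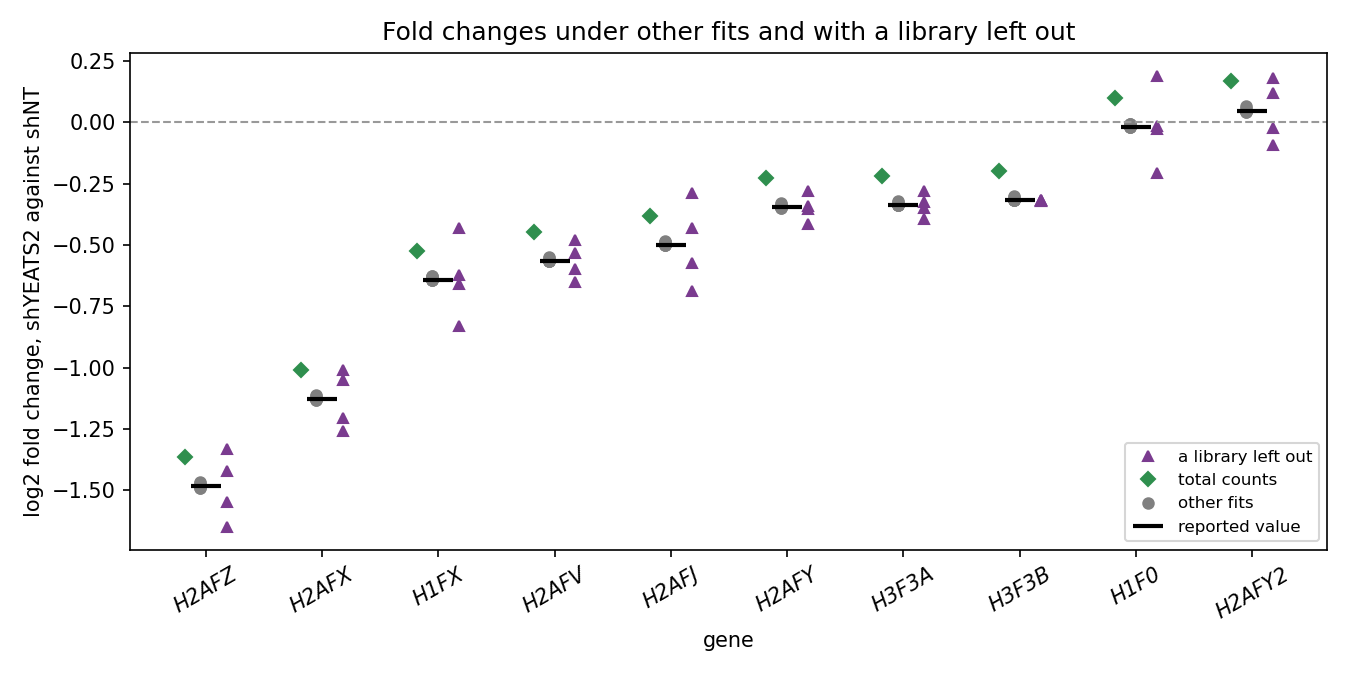
Log2 fold changes of the 10 genes as reported (black line), with 1 library left out (triangles), with total counts (diamonds) and with the other fits (grey). H2AFZ and H2AFX stay at or below -1.01 throughout, and the signs of H1F0 and H2AFY2 are not stable.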

How the data were processed

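RNA-seq reads had been aligned by the authors to hg19 (RNA-Seq unified mapper, per the methods), and the deposited values are raw whole-number counts per gene from HTSeq (0.6.1p1 in the submitters' processing notes, which also list TopHat2 2.0.10); the annotation is not given in the sources used here. The table lists genes with at least 101 reads in some library. The authors also deposited log2 fold changes with p-values and an FDR for their own comparison, which were not used. Per-library columns were assigned to samples by their names.

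A minimum of 10 reads in 2 or more libraries removed none of the 12676 genes, which were fitted together with edgeR 4.0.16 (R 4.3.3): TMM scaling, quasi-likelihood test, FDR under 0.01. The standard error was taken from the F statistic. TMM factors were 0.952 and 0.967 (shNT) and 1.04 and 1.05 (shYEATS2). The replicates of a group differed by more than sampling noise (chi-square per degree of freedom 17.9 and 38.0). Ratios of paired genes used counts plus 0.5 and an exact permutation test. The fits were tested on simulated data. Alternatives were DESeq2 1.42.0, edgeR's exactTest (the test named in the study's methods), limma-trend (limma 3.58.1, prior count 1), other scalings and filters, a replicate block, other thresholds and each library left out. The study's methods do not give the scaling or filter used with exactTest, and the exactTest counts here differ from the study's own counts of called genes. Gene positions and transcript lengths came from GENCODE on GRCh37, to which 12465 of 12676 identifiers (98.3%) matched, and 3 clustered genes were matched by an older symbol. Named genes were the 10 members, YEATS2, from each list at most 4 called genes with the largest change, and copies or antisense genes of members; other named genes were picked after their values were seen, among them those of counts of 5 or fewer. The members and lists were chosen with earlier results of these data known. Some marker genes of the cell line check are not reported here.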

Additional observations from a re-analysis of the deposited data

How the results depend on the processing

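Of the 10 genes, 3 were called lower by the quasi-likelihood test, 5 by DESeq2 (17.3% of all genes) and by exactTest (19.7%), 8 with a replicate block (21.4%) and 8 at an FDR under 0.05 (23.8%), and 2 to 4 with a library left out; none was called higher in any of these. H1FX and H2AFJ were the added calls of DESeq2 and exactTest. H2AFZ and H2AFX were called in all 15 alternatives, H2AFV in 10. Over all genes, 1581 were lower and 1630 higher; exactTest called 2497 and 2596, the block 2715 and 2742, an FDR under 0.05 3011 and 3093, and fits with a library left out 850 to 2024 lower and 775 to 1971 higher (without shNT replicate 1 850 and 775, without shNT replicate 2 919 and 882, without shYEATS2 replicate 2 1058 and 992). Scaling by total counts gave 1166 lower and 2363 higher and moved the median over all genes to 0.12 (log2), with 2 members lower. Replicate numbers are shared by label only; same-numbered deviations correlated at 0.403, which with 2 pairs does not establish a pairing, and the block stands as an alternative. The sign turned for H2AFY2 (-0.022 without shNT replicate 1, -0.093 without shYEATS2 replicate 1, range -0.093 to 0.18 over libraries left out), H1F0 (0.098 with total counts, 0.19 without shNT replicate 2, range -0.21 to 0.19), HIST3H2A (-0.071 without shYEATS2 replicate 2, range -0.071 to 0.74) and the H3F3A to H3F3B ratio (0.039 without shNT replicate 2, range -0.073 to 0.039). The cause was not tested. With a library left out, the remaining one of its group is assumed to vary like the other group. With 2 libraries a group, the 95% interval of H1F0 ran from -0.36 to 0.31 on the log2 scale.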
